A study of Mus musculus with 4 samples.

Results

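The T cell receptor (TCR) loci were followed in the lists of E2A-bound regions of L-DKO double-positive (DP) thymocytes and L-DKO invariant natural killer T (iNKT) cells. A peak, a stretch of the genome where E2A ChIP reads were enriched over input, was taken where its midpoint lay in 1 of 3 windows of the mouse build mm9: TCR alpha/delta (chromosome 14, 52.9 to 55 Mb), TCR beta (chromosome 6, 40.8 to 41.6 Mb) and TCR gamma (chromosome 13, 19.2 to 19.5 Mb). These windows held 60 of the 19048 peaks of both lists, 58 of 17532 in DP cells and 2 of 1516 in iNKT cells.

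Both cell types came from the thymus of L-DKO mice aged 3 to 5 weeks, which carry the LckCre transgene with floxed alleles of both Id2 and Id3 (Id2f/f Id3f/f LckCre+), on a C57BL/6 background or as hybrids of C57BL/6 and 129. The Lck promoter drives Cre in T lineage cells, so both populations lack Id2 and Id3, and cells with intact Id genes were not analysed here. DP cells were CD1dTet- CD4+ CD8+ and iNKT cells CD1dTet+ TCRβ+, where CD1dTet is a CD1d tetramer that stains the iNKT receptor. Cells of 3 to 4 mice were pooled, and each cell type gave 1 E2A library and 1 input library, so the lists have no replicate check, no difference between the cell types was tested, and the intervals given here cover counting error only. Peak lists hold no expression values, so the sorted populations were not checked against marker genes.

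E2A is a basic helix-loop-helix factor that binds E boxes, of which CAGGTG is a preferred form, and the Id proteins block its binding to DNA. TCR genes are assembled in the thymus from variable (V), diversity (D) and joining (J) segments. Each locus carries enhancers near its constant (C) genes, Eα past Trac, Eβ past Trbc2, Eδ near the delta constant gene and the gamma enhancers past the gamma constant genes, which open the segments to the recombinase and drive transcription of the assembled gene. Mouse iNKT cells carry an invariant alpha chain made from Trav11 (Vα14) and Traj18 (Jα18), paired with a beta chain that mostly uses a Trbv13, Trbv29 or Trbv1 segment.

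The score of a peak is 10 times the −log10 of its p-value against input, and the lowest score in both lists is 50. This minimum is the peak caller's default limit on the p-value, 1e-05. Scores rise with sequencing depth, which is unknown here, so they were ranked within a list and never compared as amounts of binding between lists. In the DP list 258 peaks share the score 3100 and 26 lie above it, so peaks at 3100 are tied at ranks 27 to 284.

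The sequences under the enhancer peaks come first, since both iNKT peaks lay there. All sequences are from the mm9 assembly, plus strand, 5′ to 3′, with each of the 7 motifs searched (CAGGTG and CAGCTG, the Runx motif ACCACA, the Tcf7/Lef1 motif TCAAAG, the Gata motif TTATCT, the cyclic AMP response element TGACGTCA and the recombination heptamer CACAGTG) in capitals in whichever orientation it occurs. The 300 bases around the midpoint of the iNKT peak at Eα (chr14:54847074-54847373) held CAGGTG at 2 places, the response element TGACGTCA, the Tcf7/Lef1 motif in reverse (CTTTGA), the Gata motif in reverse (AGATAA) centred 32.5 bp from the midpoint, and the Runx motif ACCACA, which ran into the second CAGGTG so that both share their bases in ACCACAGGTG. Sites for cyclic AMP response element binding, Tcf7/Lef1 and Runx factors are textbook features of the Eα core. The search was for exact words only, and whether the marked ACCACA is the Runx site of that core was not tested.
Eα, iNKT midpoint: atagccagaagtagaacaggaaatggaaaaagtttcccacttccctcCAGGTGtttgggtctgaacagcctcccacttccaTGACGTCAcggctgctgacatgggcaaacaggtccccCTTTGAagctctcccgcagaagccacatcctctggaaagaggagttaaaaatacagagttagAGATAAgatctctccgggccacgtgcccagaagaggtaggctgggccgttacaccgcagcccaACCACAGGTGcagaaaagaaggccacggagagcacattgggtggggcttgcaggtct

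The iNKT peak at Eβ held CAGGTG at 2 places. The first stretch (chr6:41504395-41504484) shows CAGGTG in reverse (CACCTG) with ACCACA in reverse (TGTGGT) on its 3′ side, and the second (chr6:41504723-41504782) shows CAGGTG in forward orientation.
Eβ, first site: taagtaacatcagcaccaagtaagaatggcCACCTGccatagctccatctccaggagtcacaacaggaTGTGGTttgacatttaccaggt
Eβ, second site: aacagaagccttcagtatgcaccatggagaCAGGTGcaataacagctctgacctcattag

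At Eα the iNKT peak (chr14:54846255-54848193, 1939 bp) scored 564.08 and ranked 39 of 1516. It lay wholly inside a DP peak of 2524 bp (chr14:54846049-54848572) with the score 3100, and covered 76.8% of it. The midpoints fell 4452 bp (iNKT) and 4538.5 bp (DP) past the end of Trac, in sequence whose 31-base words all occur once in the assembly. The iNKT peak held 4 CAGGTG and 3 CAGCTG sites, the nearest CAGGTG centred 99.5 bp from its midpoint. In the DP peak, with 5 CAGGTG and 5 CAGCTG sites, the nearest CAGGTG lay 13 bp from the midpoint.

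At Eβ the iNKT peak (chr6:41503796-41505444, 1649 bp) scored 300.32 and ranked 118 of 1516, with its midpoint 6440 bp past the end of Trbc2. The DP peak around it (chr6:41502540-41509845) scored 3100, was 7306 bp wide, the sixth widest of the DP list, and ran over Trbv31, the V segment that lies past Eβ in inverted orientation. The iNKT peak covered 22.6% of that DP peak, at its Trbc2-proximal side, and ended 2.25 kb before Trbv31. The DP peak held 7 CAGGTG sites.

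Both iNKT peaks thus overlapped a DP peak (2 of 2, 95% exact binomial interval 15.8 to 100%), as did 69.3% of the whole iNKT list. If the overlap had to cover at least 50% of each peak, only the Eα pair remained (50% of the iNKT peaks and 1.72% of the DP peaks). In the other direction 2 of the 58 DP peaks overlapped an iNKT peak, or 3.45% (0.420 to 11.9%), beside 5.99% of the whole DP list. The shared pair were the 2 DP peaks of the TCR loci with the score 3100, which 1.62% of the DP list reached or passed. Over the whole list, 58.8% of DP peaks at or above that score overlapped an iNKT peak. No iNKT peak lay elsewhere in the TCR alpha/delta and TCR beta windows, and none in TCR gamma.

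**Figure D1:**
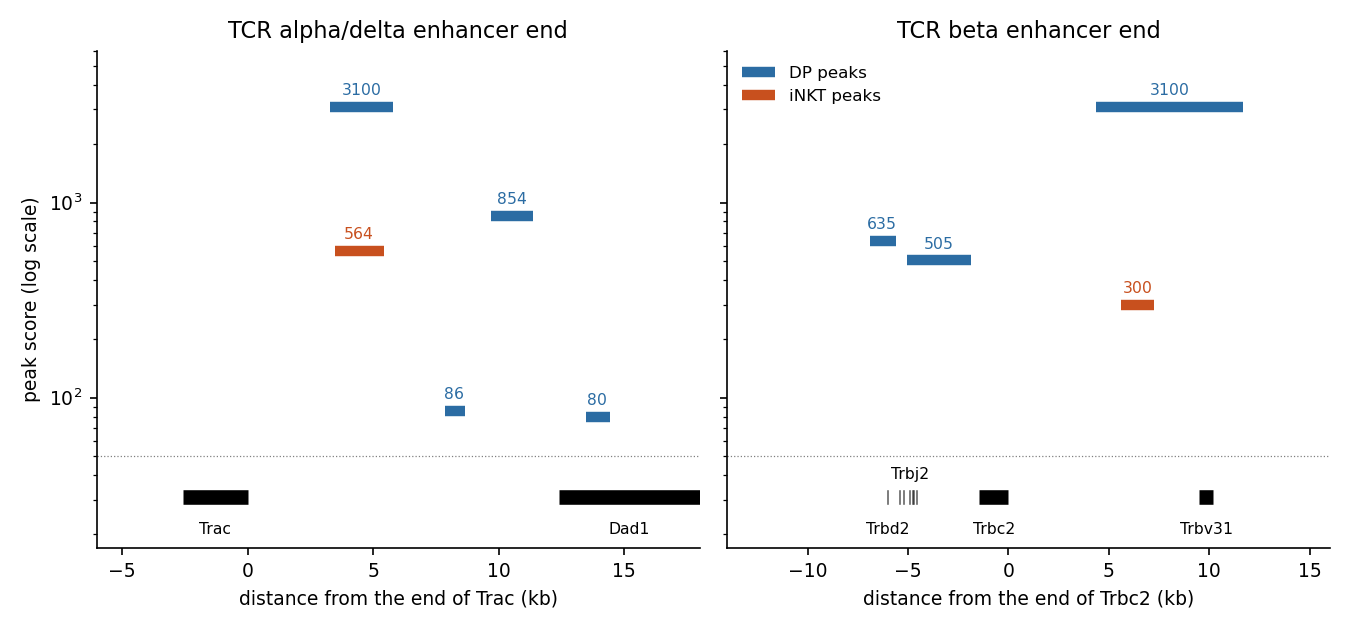
E2A peaks at the enhancer ends of the TCR alpha/delta (left) and TCR beta (right) loci. Bars span each peak in kb from the end of Trac or Trbc2, at the height of its score (log scale), for DP (blue) and iNKT (orange) cells, black boxes are genes and the dotted line is the minimum score of 50. Both iNKT peaks (564.08 and 300.32) lie within DP peaks of 3100.

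DP cells had 3 further peaks between Trac and the end of Dad1, the stretch that holds the TCR alpha locus control region. A peak of 1681 bp (chr14:54852458-54854138) scored 853.64 and ranked 1996 of 17532, with its midpoint 10.5 kb past Trac and 3 CAGGTG sites. The flanking pair were weak, at 85.7 (chr14:54850642-54851422, 8.26 kb past Trac) and 79.97 (chr14:54856243-54857200), the latter inside Dad1 and over none of its 5 annotated exons, hence intronic. No DP or iNKT peak overlapped the constant genes Trac, Trbc1 and Trbc2.

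Apart from Eβ, the strong peaks of the TCR beta locus lay at the second D and J cluster. A DP peak of 635.47 (chr6:41491279-41492600, rank 2680) covered Trbd2 (chr6:41492162-41492175), with its midpoint 222.5 bp before the segment. It held 3 CAGGTG sites, shown in the stretches chr6:41491863-41491982 and chr6:41492063-41492182, of which the second contains Trbd2 near its 3′ end. In the first, the capitals mark CAGGTG, the heptamer in reverse (CACTGTG) and ACCACA. In the second, they mark CAGGTG in reverse at 2 places.
Trbd2, upstream site: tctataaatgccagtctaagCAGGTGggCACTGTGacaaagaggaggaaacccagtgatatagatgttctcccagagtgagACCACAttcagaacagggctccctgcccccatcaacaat
Trbd2, sites beside the segment: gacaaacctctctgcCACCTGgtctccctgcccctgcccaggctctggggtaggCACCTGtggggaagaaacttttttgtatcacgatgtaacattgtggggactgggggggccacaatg

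A neighbouring DP peak of 505.39 (chr6:41493131-41496324, 3194 bp, the 211th widest of the list) ran over 5 of the Trbj2 segments, Trbj2-3 to Trbj2-7, and stopped 405 bp short of Trbc2. It held a lone CAGGTG site, against 3 sites in the Trbd2 peak, which was 1322 bp wide. The first cluster had no peak: the nearest DP peak to Trbd1 was the Trbd2 peak, 8.07 kb away.

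The V beta segments carried 3 DP peaks with scores of 67.67, 54.09 and 56.64. They lay over Trbv3, Trbv5 and Trbv13-2, and more than 80% of the DP list scored higher than each. Trbv13-2, a segment of the family used by most iNKT beta chains, had its peak at chr6:41071432-41072034. The other segments of iNKT beta chains, Trbv13-1, Trbv13-3, Trbv29 and Trbv1, had no DP peak. The V beta span of 391 kb thus had 7.68 DP peaks per Mb (1.58 to 22.4), beside 6.64 over the assembly. Of its 31-base words, 76.3% occur once, and whether this share affected the density was not tested. The 251 kb between the last of these V segments and Trbd1, which holds the trypsinogen genes, had no peak.

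TCR gamma had 3 DP peaks. The highest (chr13:19273878-19274890) scored 258.87 and lay between the V segments Trgv7 and Trgv4, 4.02 kb past the end of the former and 2.47 kb before the latter. Its only CAGGTG, in reverse, is shown in the stretch chr13:19274312-19274371.
Trgv7 to Trgv4: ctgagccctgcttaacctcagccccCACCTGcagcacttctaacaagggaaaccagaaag
The other peaks, 102.84 (over Amph) and 86.13, lay 38.7 and 15.8 kb before Trgv7. No peak fell on a gamma J or C segment or in the 10 kb past a C gene, where the gamma enhancers lie, a stretch in which 69.2% of words occur once.

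TCR alpha/delta held 49 of the 58 DP peaks, TCR beta 6 and TCR gamma 3. Per Mb this came to 23.3 peaks (17.3 to 30.8) in TCR alpha/delta, 7.5 (2.75 to 16.3) in TCR beta and 10.0 (2.06 to 29.2) in TCR gamma, beside 6.64 over chromosomes 1 to 19 and X. The density relative to the assembly was 3.51 (2.60 to 4.64), 1.13 (0.414 to 2.46) and 1.51 (0.310 to 4.40), and 2.73 (2.07 to 3.53) over the 3 windows. For iNKT cells it was 1.09 (0.132 to 3.93), from 2 peaks.

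The scores of the 58 DP peaks ran from 51.02 to 3100 with a median of 122.26, beside 140.54 for the whole DP list. A score of 100 or more was reached by 33 of the 58 (list 62.6%) and 200 or more by 21 (list 39.0%). The TCR peaks were thus spread over the score range of the list, with Eα and Eβ in its top tie.

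**Figure D2:**
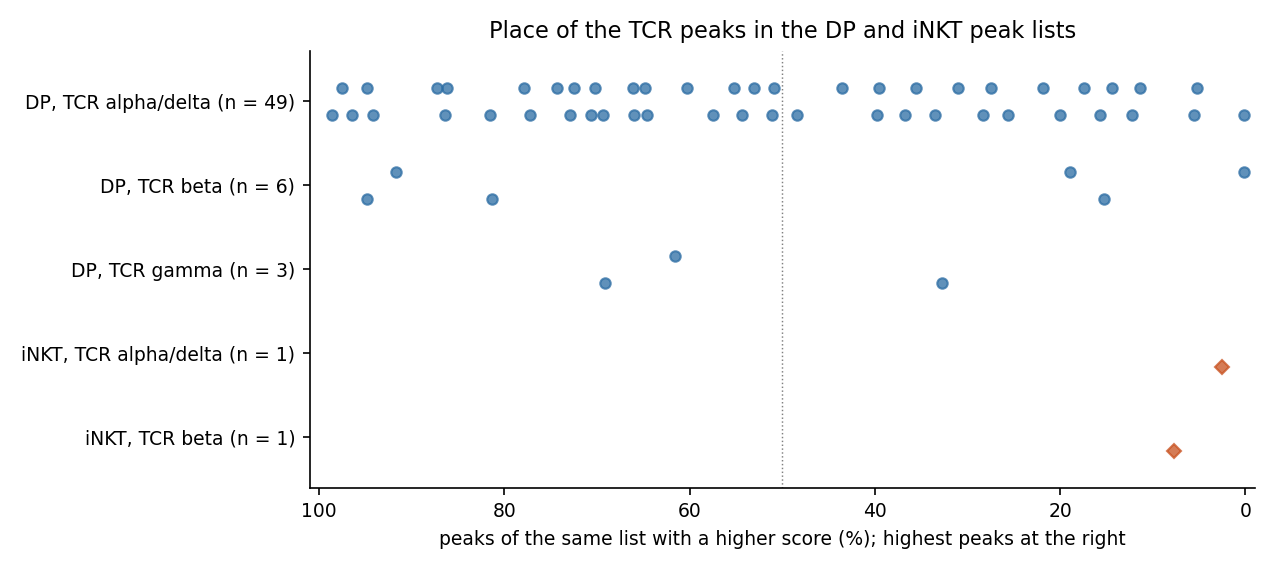
Place of each TCR peak in its own list, as the percentage of that list with a higher score (highest peaks at the right, vertical offsets only separate points). DP peaks (blue) of TCR alpha/delta spread over the whole range, and the iNKT peaks (orange) have 2.51% and 7.72% of their list above them.

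Of the 49 DP peaks of TCR alpha/delta, 39 lay among the V segments, from Trav1 to Trdv4, with scores of 51.02 to 1570.33 and a median of 128.9. V segments make up 3.52% of the bases of this span, and the midpoints of 6 of the 39 peaks lay inside one. By an overlap of 1 bp or more, a share that grows with peak width and is not comparable with that of bases, 18 of the 39 (46.2%, 30.1 to 62.8%) met a V segment. The median score was 212.62 for those 18 and 95.04 for the other 21. Of the 18 midpoints, 3 lay before the start of the segment, 6 within it and 9 past its 3′ end, where the recombination signal lies. A peak of 796.48 at the first V segment (chr14:53047001-53047873) overlapped Trav1 but is not among the 39, since its midpoint lay 166 bp before Trav1.

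The V alpha/delta span contains near-identical copies, and the authors kept only reads with a unique best hit. The part of such copies in the peak counts was not tested. Over all 3 windows 58.6% of 31-base words occur once in the assembly, over the V alpha/delta span 40.6%. The block of d segments (33 V genes) and the block of n segments (26 V genes) had 13.3% and 14.6% of such words. They carried 3 DP peaks (8.20 per Mb) and 4 DP peaks (13.4 per Mb), against 30 peaks (43.8 per Mb, 29.6 to 62.5) in the block from Trav7-2 to Trdv4, where 59.0% of words occur once. Per Mb of bases whose word occurs once, these became 61.5 (12.7 to 180), 91.6 (24.97 to 235) and 74.2 (50.1 to 106) peaks. The block from Trav1 to Trav6-2, with 58.1% of such words, had 2 peaks and 11.6 (1.403 to 41.8) on that scale. Binding of copies without such words may not have been detectable from these lists. The read length is not given in the sources used here, so 31-base words only approximate what reads could resolve.

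**Figure D3:**
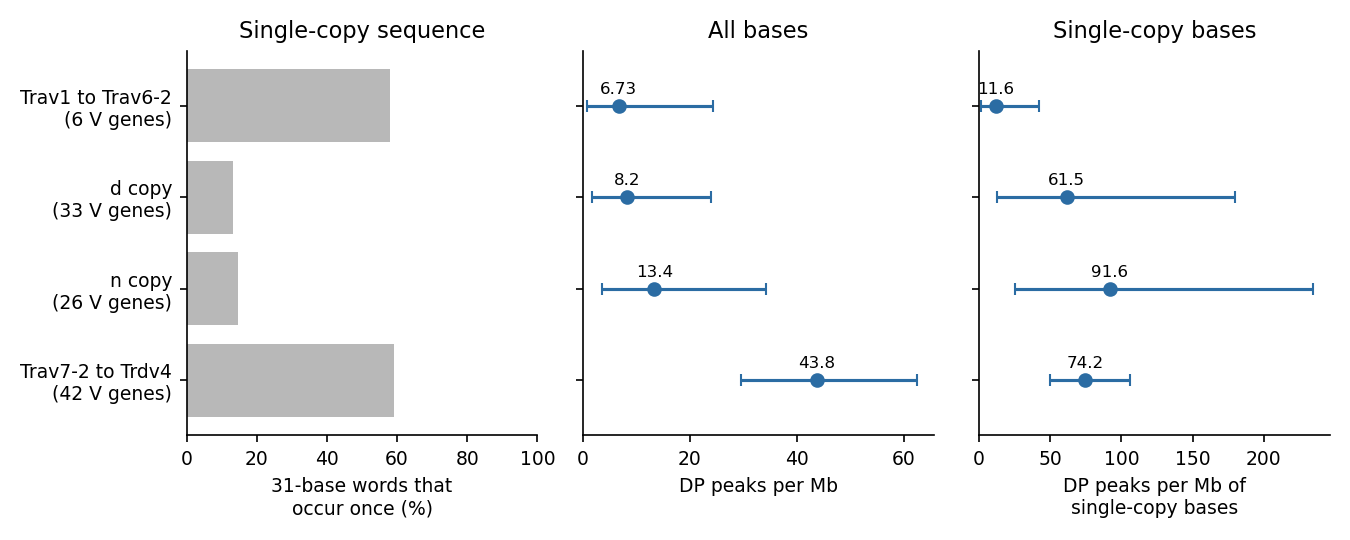
The V alpha/delta span in 4 blocks. Left, percentage of 31-base words that occur once; middle and right, DP peaks per Mb of all bases and of bases whose word occurs once, with 95% Poisson intervals. The d and n copies have 8.20 and 13.4 peaks per Mb of all bases against 43.8 in the block from Trav7-2 to Trdv4, and the intervals of these 3 blocks overlap on the right.

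Among the 39 peaks of the V alpha/delta span, the highest were at Trav15-1-dv6-1 and Trav13n-4. Trav15-1-dv6-1, a segment that can join to either the alpha or the delta genes, had a DP peak of 1570.33 (chr14:54179190-54180323, rank 920 of 17532). The 160 bases chr14:54179910-54180069 begin in the end of the segment and show the recombination heptamer CACAGTG, followed by CAGCTG at 2 places with CAGGTG in reverse between them.
Trav15-1-dv6-1: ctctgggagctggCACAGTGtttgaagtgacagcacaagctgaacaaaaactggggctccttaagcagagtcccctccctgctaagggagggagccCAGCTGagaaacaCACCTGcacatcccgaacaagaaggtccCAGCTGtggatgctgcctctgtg

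At Trav13n-4 the DP peak (chr14:53983111-53984355) scored 1517.51 and ranked 970. In chr14:53983585-53983824 the capitals mark a CAGGTG and a TTATCT within the segment, ACCACA running into the heptamer CACAGTG at its 3′ end, and a CAGGTG in reverse just past the heptamer.
Trav13n-4: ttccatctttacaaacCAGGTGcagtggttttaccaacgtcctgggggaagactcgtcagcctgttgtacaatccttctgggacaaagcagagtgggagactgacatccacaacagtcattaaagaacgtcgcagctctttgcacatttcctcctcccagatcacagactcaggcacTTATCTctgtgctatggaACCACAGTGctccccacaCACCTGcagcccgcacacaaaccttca

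Trav13 was the V alpha family with the most bound members, 4 of 8 genes, with scores of 1517.51 (Trav13n-4), 477.12 (Trav13-1), 311.42 (Trav13-2) and 120.75 (Trav13d-4). The CAGGTG within Trav13n-4 was compared across the family in the best ungapped match of 41 bases, and no other of the 8 genes held it there, with 9 or 10 mismatches each. Trav13d-4 and Trav13-4-dv7 are the same over these 41 bases, as are Trav13-1 and Trav13d-1, and in each pair 1 gene had a peak and the other none. The Trav13d-4 stretch ends before the peak of that gene (chr14:53692823-53693169) starts. The other stretches labelled with a peak lie under theirs. The stretches lie at chr14:53983586-53983626, chr14:54165005-54165045, chr14:54254879-54254919, chr14:53471346-53471386, chr14:53692754-53692794 and chr14:54377401-54377441, for Trav13n-4, Trav13-1, Trav13-2, Trav13d-1, Trav13d-4 and Trav13-4-dv7 in the order shown.
Trav13n-4, peak of 1517.51: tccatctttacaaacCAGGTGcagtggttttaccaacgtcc
Trav13-1, peak of 477.12: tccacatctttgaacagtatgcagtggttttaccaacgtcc
Trav13-2, peak of 311.42: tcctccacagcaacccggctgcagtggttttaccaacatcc
Trav13d-1, no peak: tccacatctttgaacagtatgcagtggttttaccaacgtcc
Trav13d-4, peak of 120.75: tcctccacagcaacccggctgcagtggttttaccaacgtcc
Trav13-4-dv7, no peak: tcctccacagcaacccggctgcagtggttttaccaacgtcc
The peaks over Trav13-1 and Trav13-2 held 3 and 4 CAGGTG sites outside this stretch, and the peak over Trav13d-4 held none. In the gene and the 1 kb before it, 21.8% of words occur once for Trav13n-4, 49.6% for Trav13-1, 54.0% for Trav13-2, 23.5% for Trav13d-4, 14.5% for Trav13-4-dv7 and 3.74% for Trav13d-1. The other unbound genes, Trav13d-2 and Trav13n-2, have 0% of such words. These shares depend on the word length: of the words within Trav13n-4, 46.0% occur once in the TCR alpha/delta window at 31 bases, 85.8% at 50 and 100% at 100, and within Trav15-1-dv6-1 55.2%, 70.6% and 92.8%.

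Counting a V gene as bound where a DP peak overlapped the gene or the 1 kb before it, 23 of 138 V genes were bound (16.7%, 10.9 to 24.0%). By the same rule 17.6% of all annotated genes on chromosomes 1 to 19 and X had a DP peak, and 2.77% of those of at most 1 kb, a length that 3 of the 138 V genes exceed. The bound V genes were 19 of 108 in TCR alpha/delta, 4 of 23 in TCR beta including Trbv31, and 0 of 7 in TCR gamma (upper limit 40.96%). Of the 23, 22 held CAGGTG in that stretch, beside 72 of the 115 V genes with no peak. In TCR alpha/delta, the median share of words that occur once was 51.6% in the bound genes and 13.7% in the others. In TCR beta it was 98.7% and 97.1%, and the 7 gamma V genes, none of them bound, had a median of 91.1%. The part of CAGGTG content and of uniqueness in the calls was not tested.

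Among the other families, Trav14 had 2 of 7 genes bound (up to 616.38, at Trav14-1), Trav4 2 of 7 (up to 229.17), Trav15 1 of 6 and Trav9 1 of 11. Both Trdv2 genes were bound: Trdv2-1 by a pair of peaks of 549.87 and 196.07, and Trdv2-2 by a peak of 277.16. The 14 genes of Trav6 and the 8 of Trav7 had none. The median share of words that occur once, in the gene and the 1 kb before it, differed between families. It was 26.4% in Trav14, 3.53% in Trav4, 1.30% in Trav15 and 2.23% in Trav9. In Trdv2 it was 85.5%, in Trav6 43.0% and in Trav7 30.9%. The part of this share in the family counts was not tested. Of the 21 peaks of this span that overlapped no V segment, the highest scored 677.2 (chr14:54410702-54411897) and lay 14049.5 bp past Trav3-4.

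**Figure D4:**
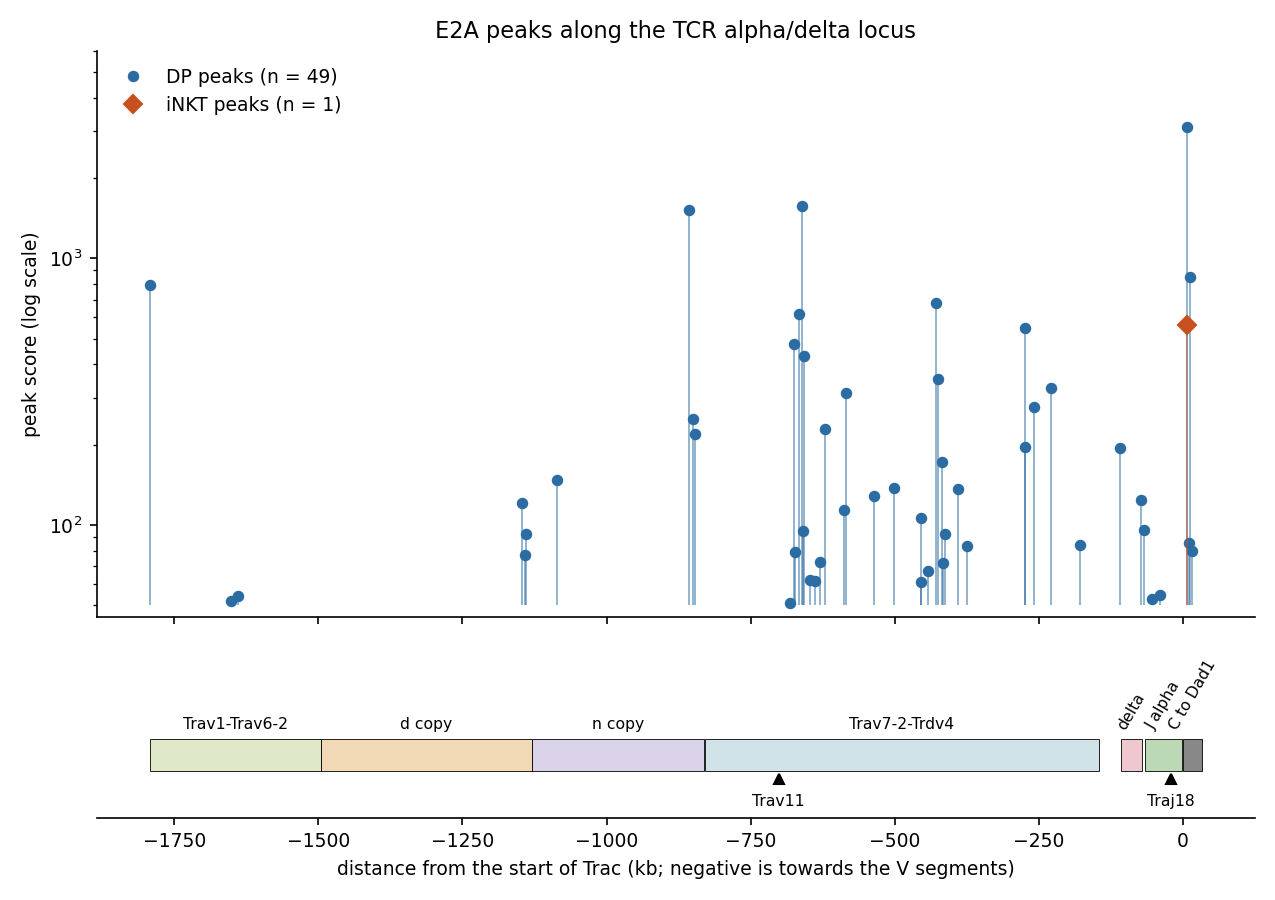
E2A peaks along the TCR alpha/delta locus by distance from the start of Trac (kb) and score (log scale), for 49 DP peaks (blue) and 1 iNKT peak (orange). Boxes under the plot mark the V blocks, the delta segments, J alpha and the stretch from Trac to the end of Dad1, and triangles mark Trav11 and Traj18. The DP peak of 3100 and the iNKT peak stand together just past Trac, and no peak stands at either triangle.

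Trav11 and Traj18, the segments of the invariant iNKT alpha chain, had no peak in either list. The nearest DP peak to Trav11 (chr14:54138978-54139534) was 17.9 kb away, over Trav12-1, and was the weakest of all TCR peaks at 51.02. None of the 31-base words of Trav11 occurs once in the assembly, and no word of 31, 50 or 100 bases in it occurs once in the TCR alpha/delta window, where Trav11d is a further gene of the family. A read of up to 100 bases within Trav11 would thus match at more than 1 place, and binding there was not detectable. No CAGGTG lay in Trav11 or the 1 kb before it. Traj18 (chr14:54820452-54820517) consists of words that occur once, and its nearest DP peak was 19.2 kb away.

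Joining Trav11 to Traj18 deletes the 681 kb between them, and 35 of the 49 DP peaks of TCR alpha/delta (71.4%) lay in that interval, with scores of 51.02 to 1570.33, while 10 lay before Trav11 and 4 past Traj18. No iNKT peak lay in the interval, so 0 of the 35 DP peaks were shared (upper limit 10.0%), beside 5.99% of the whole DP list, and a lower share than the list's was not detectable. The 10 DP peaks before Trav11, outside that interval, were likewise shared in 0 of 10 cases. Some of them lie past Trav11d (chr14:53444015-53444587), and joins from that gene or on the other allele were not analysed. Fewer copies of DNA in rearranged iNKT cells and E2A binding to it cannot be told apart from these lists. The lists give no input coverage. DP cells may also have lost DNA by rearrangement, so the same limit applies to stretches of any of the loci without a DP peak and to the DP densities.

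Between Trdv4 and Trac lay 5 DP peaks, with scores of 52.73 to 194.93. A DP peak of 194.93 (chr14:54730619-54731239) lay 2.21 kb before Trdd1, and no peak fell on the D and J delta segments. The stretch from Trdj2 to Trdv5, which holds the delta constant gene and Eδ, had 1 DP peak of 123.77 (chr14:54766739-54767746), 10.7 kb past Trdj2 and 1.09 kb before the lower coordinate of Trdv5. A peak of 95.51 (chr14:54772377-54773050) lay 1.97 kb before Traj61, the first J alpha segment, in the 5 kb stretch of the T early alpha (TEA) promoter, from which germline transcription of J alpha starts.

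J alpha itself had 2 peaks, over Traj50 (52.73) and Traj37 (54.64), both near the minimum score. Its density relative to the V alpha/delta span was 1.32 (0.155 to 5.11), and 0.548 per base whose word occurs once. On that scale J alpha went from 31.3 to 31.9 peaks per Mb, with 98.2% of its words occurring once, and the V alpha/delta span from 23.7 to 58.3. With 2 peaks neither a higher nor a lower density could be resolved.

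CAGGTG lay within the 200 bp around the midpoint of 20 of the 58 DP peaks (34.5%, 22.5 to 48.1%), beside 43.9% of the whole DP list and 11.9% of all such windows of the assembly. Over whole peaks it was present in 67.2%, beside 79.0% of the list. Neither iNKT peak held it whole in that window, which reaches 100 bp to each side of the midpoint (list 52.8%), and both held it further out, centred 99.5 bp (Eα, where the window's edge cuts the site) and 135.5 bp (Eβ) from the midpoint. CAGCTG lay at the midpoint of 34.5% of the DP peaks (list 29.04%, assembly 7.23%). The 2 E-box forms do not overlap as words, and both strands were searched for every motif.

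The recombination heptamer CACAGTG lay within 200 bp in 12 of the 58 DP peaks, or 20.7% (11.2 to 33.4%), beside 6.42% of the DP list and 4.84% of assembly windows. It was in 9 of the 18 peaks over a V alpha/delta segment and in 0 of the 21 V peaks that overlapped none (upper limit 16.1%), 1 of which ended just before Trav9-2. Over the whole peak, 14 of the 18 and 3 of the 21 held it. The heptamer belongs to the recombination signal beside V segments, but this exact word was not found at each of them: the peaks that run past the 3′ ends of Trdv2-2, Trav19, Trbv3 and Trbv5 held 0 copies over their whole length. Conversely, the word need not be that signal. The peaks chr14:54157462-54158156 (Trav12-1) and chr14:54565342-54566132 (Trdv2-1) held it within the 200 bp and ended before the 3′ end of the segment. ACCACA was in 39.7% (27.0 to 53.4%; list 23.8%, assembly 13.8%), TCAAAG in 27.6% (list 17.4%, assembly 15.5%), and the Gata motif TTATCT in 15.5% (list 8.90%, assembly 13.3%). TGACGTCA lay at the midpoint of the iNKT Eα peak (list 0.594%, assembly 0.107%) and of 0 of the 58 DP TCR peaks (list 0.610%), the Eα site being 152 bp from the DP midpoint.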

How the data were processed

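E2A ChIP-Seq of L-DKO DP and iNKT cells gave 1 E2A and 1 input library each. Per the methods, the authors mapped the reads with Bowtie (1.1.2) against mm9, kept those with a unique best hit, and ran MACS (1.4.2) at its defaults with the input as control. The deposited score is 10 times the −log10 of the p-value. Reads, inputs and read depth were not analysed here, so the precision per peak is unknown. Peak starts were made 1-based. TCR segments came from GENCODE M1 on NCBIM37 (mm9), with present-day symbols from RefSeq (GRCm38.p6, names only) for 220 of 227. Trdc was not analysed here. A word occurs once if its 31 bases, on either strand, occur once in the assembly. Overlap meant 1 bp or more. Intervals are exact Poisson (counts, densities) or Clopper-Pearson (shares), at 95%. Each iNKT peak, the highest DP peak of each part of a locus, and every peak in a stretch known to hold an enhancer were named, with others by range and count; further V peaks were chosen after their values were seen. The windows, members and lists were chosen with earlier results of these data known. Alternatives were a higher minimum score, trimmed windows, stricter overlap, other motif windows and densities per base whose word occurs once. The functions were tested on simulated data (15 of 15 checks recovered); Python 3.11.15 ran scipy 1.17.1 for intervals, numba 0.67.0 for word counts, numpy 2.4.6 and pandas 2.3.3.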

Additional observations from a re-analysis of the deposited data

How the results depend on the processing

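Of 36 alternative values for 10 results, 23 stayed on the same side and within 1.5 times (counts) or within the counting interval (other values), 9 moved further, and 4 ratios went from above 1 to below it, 2 of them (0.660 and 0.548) inside the interval. With a minimum score of 100 or 200 the DP count fell to 33 or 21, and the density of J alpha over V alpha/delta to 0 and 0. A minimum of 200 raised the iNKT density relative to the assembly to 8.17. Trimming the windows to the annotated segments ends TCR alpha/delta at Trac and so drops Eα, leaving 1 iNKT peak and a relative density of 0.660. Per base whose word occurs once, the DP density relative to the assembly was 3.75 and that of J alpha over V alpha/delta 0.548. CAGGTG was in 67.2% of DP and 100% of iNKT peaks over the whole peak, in 13.8% of DP peaks in 100 bp, and CAGGTG or CAGCTG in 58.6%. Merging peaks within 200 bp (55 DP peaks) and extending the V span by 1 kb (1.29) were added after seeing the data. No paired analysis was possible because each cell type has 1 E2A library and no test was run. Unknown depth limits any comparison of peak number between the cell types.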
